A study of Mus musculus with 4 samples.

Results

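The insulin-like growth factor (IGF) family was followed here through 9 genes of the 32285 in the deposited matrices. They are the ligand genes Igf1 and Igf2, the receptor gene Igf1r, and the binding protein genes Igfbp2, Igfbp3, Igfbp4, Igfbp5, Igfbp6 and Igfbp7, found by symbol, each of which named 1 feature. The question put to the data was which cells of the tumour carry mRNA for the ligands and binding proteins, which carry mRNA for the receptor, and whether the 2 tumour lines differ. IGF1 and IGF2 are secreted growth factors that bind the receptor tyrosine kinase IGF1R on nearby cells, which signals to growth and survival through the PI3K and AKT kinases. The secreted binding proteins hold the ligands outside the cell and so limit or prolong their action, and proteases such as PAPP-A release the ligand again. In pancreatic tumours fibroblasts are known as a source of IGF1 for cancer cells.

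The upstream sequences are shown for 4 binding protein genes that differed in their levels in tumour-like cells. All 4 had their highest mean level in stromal-like cells. Igfbp6 was low in tumour-like cells, while Igfbp3, Igfbp4 and Igfbp7 had UMIs in many of them. Igfbp6 and Igfbp7 were both called higher in stromal-like than in tumour-like cells, so the tests do not set Igfbp6 apart from the other genes. All 9 members had a promoter entry from RefSeq on build GRCm38.p6, each running from 250 bases before the annotated start to 50 after it. The lines below give the 250 bases before the start, 5′ to 3′ on the gene's strand, with matches to TATAAA or GGGCGG on either strand in capitals. They are chr11:7213924-7214173 (minus strand, Igfbp3), chr11:99040994-99041243 (plus, Igfbp4), chr15:102143936-102144185 (plus, Igfbp6) and chr5:77408046-77408295 (minus, Igfbp7).
Igfbp3: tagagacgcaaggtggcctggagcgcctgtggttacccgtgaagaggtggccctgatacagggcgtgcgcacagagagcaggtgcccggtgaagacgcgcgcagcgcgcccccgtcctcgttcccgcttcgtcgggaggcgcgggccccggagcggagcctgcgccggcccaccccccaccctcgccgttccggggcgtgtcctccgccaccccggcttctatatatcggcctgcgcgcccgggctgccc
Igfbp4: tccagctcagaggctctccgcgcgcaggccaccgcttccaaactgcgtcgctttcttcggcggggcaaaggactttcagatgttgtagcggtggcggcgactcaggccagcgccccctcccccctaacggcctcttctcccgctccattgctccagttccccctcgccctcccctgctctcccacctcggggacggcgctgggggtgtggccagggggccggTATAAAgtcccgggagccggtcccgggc
Igfbp6: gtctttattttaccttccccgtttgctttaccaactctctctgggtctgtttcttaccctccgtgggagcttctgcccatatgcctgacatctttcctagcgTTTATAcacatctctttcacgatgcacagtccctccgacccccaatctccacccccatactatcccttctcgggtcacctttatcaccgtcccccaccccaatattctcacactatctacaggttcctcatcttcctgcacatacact
Igfbp7: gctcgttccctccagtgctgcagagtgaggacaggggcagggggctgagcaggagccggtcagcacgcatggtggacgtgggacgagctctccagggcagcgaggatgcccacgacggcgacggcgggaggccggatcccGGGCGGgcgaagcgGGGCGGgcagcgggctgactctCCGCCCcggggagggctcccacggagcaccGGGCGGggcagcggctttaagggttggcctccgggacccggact
The Igfbp4 sequence held TATAAA on the given strand, with its first base 28 bases before the start (position -28). In Igfbp6 the match lay on the other strand at position -148, and Igfbp7 held GGGCGG 3 times on the given strand and 1 time on the other. Over all 32851 RefSeq promoters of this length, 13.6% held TATAAA and 35.7% held GGGCGG on either strand, and the 2 motifs cannot overlap in sequence. CpG pairs in the full windows numbered 37 in Igfbp3, 27 in Igfbp4, 33 in Igfbp7 and 8 in Igfbp6, against a median of 7 over all promoters. Igfbp2, also higher in stromal-like than in tumour-like cells, had 18 and 14 in its 2 windows, and Igfbp5 had 10. The Igf1 window, with 6 CpG pairs and no match, lies within the bounds of the annotated gene and is not shown. A match is a description of these letters and no evidence of binding.

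The libraries came from tumours implanted in the pancreas of C57BL/6J mice with KPC cells, a mouse model of pancreatic ductal adenocarcinoma, and collected untreated at day 13. There were 4 libraries, an enriched and a whole one of the line KPC-4545 (replicate 1) and an enriched and a whole one of the line KPC-3403 (replicate 2). Whole libraries were unsorted tumour suspensions, and enriched libraries held cells sorted for lacking CD45, CD31, TER119 and EPCAM, antigens of leukocytes, endothelial cells, red cell precursors and epithelial cells. RNA was counted as unique molecular identifiers (UMIs) from the 5′ end of transcripts. Each line is 1 cell line, so a difference between lines rests on 1 line each. Whether the libraries are of separate animals is not in the labels, and the p-values then measure the spread between these libraries alone, which may be technical.

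The libraries held between 5746733 and 51450719 UMIs, and 5610 cells were kept: 1516 in enriched KPC-4545, 527 in whole KPC-4545, 2470 in enriched KPC-3403 and 1097 in whole KPC-3403. Enriched KPC-4545 and whole KPC-3403 shared 137 cell barcodes, and 129 of these in enriched KPC-4545 were small copies, with the smaller partner at a median of 2.56% of the UMIs of the larger. Other pairs of libraries shared 6 to 8 barcodes. Small copies were set aside, 135 in enriched KPC-4545, 0 in whole KPC-4545 and 8 in each KPC-3403 library. With these barcodes kept, the same members were called in all 3 comparisons between cell compartments, and stromal-like cells held 95.8% instead of 97.0% of the Igf1 UMIs of enriched KPC-4545. Clusters, made without the 9 members, were grouped by marker genes as stromal-like, immune-like or tumour-like, with 713 cells in clusters that stayed unnamed, 623 of them in enriched KPC-4545. In the same order of libraries there were 56, 11, 1665 and 58 stromal-like cells, 5, 409, 25 and 624 immune-like cells, and 828, 59, 708 and 260 tumour-like cells. Stromal marker genes such as Col1a1 and Dcn summed to between 349 and 522 UMIs per 10000 in stromal-like cells. In tumour-like cells the stromal list summed to 42.3 in enriched KPC-4545 and to between 4.53 and 18.1 in the other libraries, with the epithelial list at 41.3 in enriched KPC-4545 and between 78.9 and 115 elsewhere.

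Each comparison between compartments called 4 members. Igf1, Igfbp2, Igfbp6 and Igfbp7 were higher in stromal-like than in tumour-like cells, and Igf1, Igfbp3, Igfbp4 and Igfbp7 were higher in stromal-like than in immune-like cells. Between immune-like and tumour-like cells, Igfbp3, Igfbp4 and Igfbp7 were lower and Igfbp6 was higher in immune-like cells. Igf1r was called in none of the 3 comparisons. These calls come from edgeR's quasi-likelihood test on UMIs summed per library and compartment, for sums of at least 20 cells (3 stromal-like, 3 immune-like and 4 tumour-like sums), with the library as a block and Benjamini-Hochberg adjustment over all genes.

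Of the 9 members, 8 passed the filter on low counts and Igf2 did not. Stromal-like against tumour-like cells gave 4 higher, 0 lower and 4 not passing, beside 21.0% of all 11520 genes called in either direction, 12.4% higher and 8.65% lower. Immune-like against tumour-like cells gave 1 higher, 3 lower and 4 not passing, beside 28.5% of all genes called, 12.1% higher and 16.4% lower. Stromal-like against immune-like cells gave 4 higher, 0 lower and 4 not passing, beside 23.7% of all genes called, 14.7% higher and 9.03% lower. The members' median log2 differences were 2.62, -1.17 and 4.79 in these comparisons, and those of all genes tested were -0.04, -0.19 and 0.12.

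**Figure D1:**
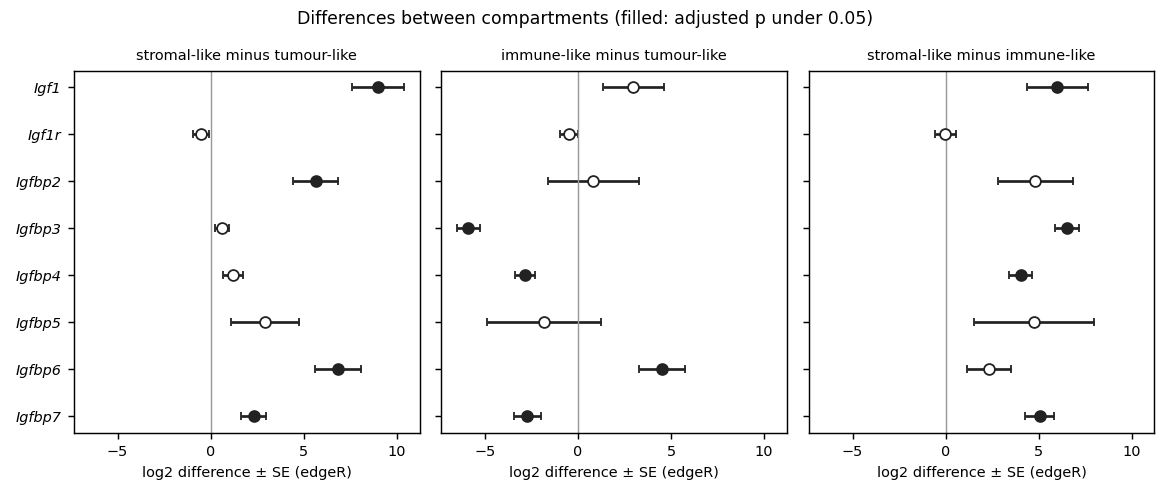
Log2 differences of the 8 members that passed the filter in the 3 comparisons between compartments, with standard errors as bars and called members as filled points. Igf1 stands highest in stromal-like minus tumour-like at 9.0, and Igf1r lies within 0.51 of 0 in all 3 panels.

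Igf1, the main IGF ligand gene, was almost wholly a gene of stromal-like cells. Its level was 9.36 UMIs per 10000 in enriched KPC-4545, 3.57 in enriched KPC-3403 and 3.6 in whole KPC-3403 stromal-like cells, and 6.24 in the 11 stromal-like cells of whole KPC-4545, which were too few for the test. Immune-like cells had 0.0112 in whole KPC-4545 (2 UMIs), 0.813 in enriched KPC-3403 (5 UMIs) and 0.0252 in whole KPC-3403 (7 UMIs). Tumour-like cells had 0.00182 in enriched KPC-4545, 0.00883 in whole KPC-4545, 0.0375 in enriched KPC-3403 and 0.0113 in whole KPC-3403. Every stromal-like value lay above every immune-like and tumour-like value, and the ranges of immune-like and tumour-like cells overlapped. By edgeR's quasi-likelihood test with Benjamini-Hochberg adjustment Igf1 was higher in stromal-like than in tumour-like cells by 9.0 ± 1.39 on the log2 scale (SE, adjusted p = 0.00426) and than in immune-like cells by 6.02 ± 1.65 (adjusted p = 0.0413). Immune-like minus tumour-like was 2.98 ± 1.62 (adjusted p = 0.230) and was called without a filter on low counts (2.91, adjusted p = 0.00198) and without whole KPC-3403 (4.27, adjusted p = 0.00138). The call against immune-like cells was lost without whole KPC-4545 (adjusted p = 0.0814) and with relative log expression scaling (adjusted p = 0.0544).

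The stromal-like share of all Igf1 UMIs found in cells was 97.0% in enriched KPC-4545 (95% exact Clopper-Pearson interval 95.2 to 98.2), 95.9% in whole KPC-4545, 99.4% in enriched KPC-3403 and 94.3% in whole KPC-3403. Stromal-like cells held only 1.90%, 6.63%, 67.9% and 11.5% of all UMIs in the cells of these libraries, in the same order. Intervals and floors cover counting error only. Free RNA, taken from barcodes with at most 100 UMIs, carried Igf1 at 0.750, 1.71, 3.68 and 0.819 UMIs per 10000, above the level in the immune-like and tumour-like cells of the same library.

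**Figure D2:**
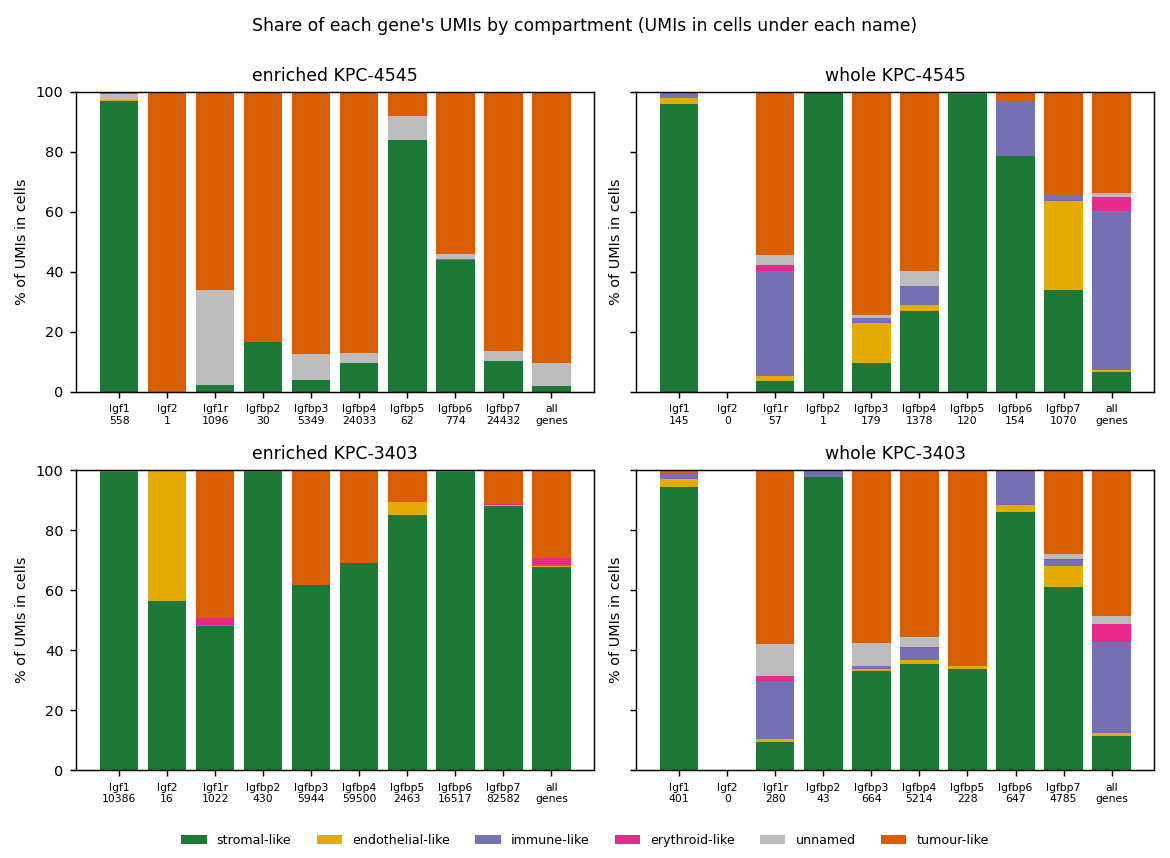
Share of each member's UMIs by compartment in each library, with the number of UMIs under the gene name and the share of all genes' UMIs as the last bar. Stromal-like cells hold over 94% of Igf1 UMIs in each library, although the last bar gives them 1.90% to 67.9% of all UMIs.

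The cell-level picture of Igf1 followed the levels. After thinning each cell to 1000 UMIs, which left out 3 stromal-like cells of enriched KPC-4545 and 19 of enriched KPC-3403, Igf1 was detected in 50.9% of stromal-like cells of enriched KPC-4545 (interval 36.8 to 64.9), 26.7% in enriched KPC-3403 and 25.9% in whole KPC-3403. The matching shares of tumour-like cells were 0.122% and 0.582% in the enriched libraries and 0 of 248 cells in whole KPC-3403 (interval 0 to 1.48). Unthinned, the shares were 83.9%, 83.1% and 77.6% of stromal-like cells, against 0.483%, 4.52% and 1.15% of tumour-like cells. Median depths were 7402.5, 16799 and 16581 UMIs in these stromal-like cells, and 31475, 16114 and 12574 UMIs in the tumour-like cells.

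Within the stromal-like cells, Igf1 was highest in the fibroblast-like cluster led by Sfrp4, Clec3b and Dpt. There it reached 12.3 UMIs per 10000 in enriched KPC-4545 (35 cells), 5.86 in enriched KPC-3403 (337 cells) and 6.82 in whole KPC-3403 (21 cells), and the next cluster had 6.33, 3.48 and 2.54. The counting intervals of the first and second cluster did not overlap in any of these libraries, but they leave out the spread between cells. In the fibroblast-like cluster 1 cell held 20.2% of Igf1 UMIs in enriched KPC-4545 and 23.5% in whole KPC-3403. The next cluster had 36.7% and 29.1% in 1 cell. In enriched KPC-3403, 76.9% of fibroblast-like cells had an Igf1 UMI, against 86.4% in the next cluster, at median depths of 11219 and 17369 UMIs. The mesothelial-like cluster of enriched KPC-3403 (120 cells) had 1.91. The myeloid cluster led by C1qb and Arg1 had no Igf1 UMI in whole KPC-4545 and 4 UMIs (0.0648 per 10000) in whole KPC-3403.

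Igf2, the imprinted second ligand, was nearly undetected. It gave no UMI in the cells of either whole library, 1 UMI in tumour-like cells of enriched KPC-4545 and 9 UMIs (0.00311 per 10000) in the 1665 stromal-like cells of enriched KPC-3403. A further 7 UMIs (0.715 per 10000) fell in 3 of the 21 cells of that library in the cluster named endothelial-like, 71.4% of them in 1 cell. These 21 cells went against their name, since only 1 of 9 endothelial markers had a UMI there (0.510 per 10000, against 51.7 in the 8 cells of whole KPC-3403) and the stromal list summed to 67.6. A count of 0 allows up to 0.0285 UMIs per 10000 in the stromal-like and 0.00678 in the tumour-like cells of whole KPC-3403.

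Igf1r, the receptor gene, was spread over stromal-like, immune-like and tumour-like cells at low levels. Stromal-like cells had 0.398 UMIs per 10000 in enriched KPC-4545, 0.170 in enriched KPC-3403 and 0.247 in whole KPC-3403. Immune-like cells had 0.112 in whole KPC-4545, 0.813 in enriched KPC-3403 and 0.194 in whole KPC-3403. In tumour-like cells the level was 0.263 in enriched KPC-4545, 0.274 in whole KPC-4545, 0.403 in enriched KPC-3403 and 0.366 in whole KPC-3403. The 3 ranges overlapped, and the tumour-like values spread least. By edgeR's quasi-likelihood test the log2 difference was -0.51 ± 0.43 for stromal-like minus tumour-like (SE, adjusted p = 0.449), -0.51 ± 0.48 for immune-like minus tumour-like (adjusted p = 0.469) and -0.01 ± 0.57 for stromal-like minus immune-like (adjusted p = 0.999), which does not show that the levels were alike. Free RNA carried 0.460 in enriched KPC-4545, above its stromal-like and tumour-like cells, and 0.146 in whole KPC-4545, 0.0971 in enriched KPC-3403 and 0.145 in whole KPC-3403, below the tumour-like cells there.

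Tumour-like cells held most of the Igf1r UMIs in 3 of the 4 libraries. The share was 66.1% in enriched KPC-4545, 54.4% in whole KPC-4545, 49.4% in enriched KPC-3403 and 57.9% in whole KPC-3403. Of all UMIs in cells they held 90.3%, 33.7%, 29.4% and 48.5% in the same order. Their Igf1r share was thus below their share of all UMIs in enriched KPC-4545 and above it in the others. With cells assigned by a marker gate instead, the tumour-like shares of Igf1r UMIs were 25.2%, 47.4%, 39.7% and 58.6% in the same order. In enriched KPC-4545 stromal-like cells then held 71.1%, beside 58.5% of all UMIs. With stricter cell filters the tumour-like share of enriched KPC-4545 was 40.2%, and 57.5% lay in unnamed clusters. Enriched KPC-3403, which was mostly stromal-like cells, had 48.0% of its Igf1r UMIs there. Among leukocytes the receptor was uneven. The neutrophil-like cluster led by Acod1, Ccl3 and Il1b had 0.871 in whole KPC-4545, 0.95 in enriched KPC-3403 and 0.992 in whole KPC-3403. These levels rest on 5, 5 and 25 UMIs. B and plasma cell-like cells had no Igf1r UMI in whole KPC-4545 (interval 0 to 0.0605) and 1 in whole KPC-3403 (0.0194). NK-like cells had none in whole KPC-4545 (interval 0 to 0.301) or whole KPC-3403 (interval 0 to 0.244). In whole KPC-4545 the neutrophil-like interval, 0.283 to 2.03, overlapped that of NK-like cells.

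The highest Igf1r levels of all stood in clusters of unusual quality. In enriched KPC-4545 the unnamed cluster led by Neat1 and Nfatc2 (335 cells) had 1.72 UMIs per 10000, with a median mitochondrial share of 13.9% and Neat1, a nuclear RNA, at 151 per 10000. A tumour-like cluster of the same library (96 cells) had 1.35, with a median mitochondrial share of 14.4%. In whole KPC-3403 an unnamed cluster led by Prl2c3 (52 cells, median 848.5 UMIs) had 1.30. Only 4 of these cells had an Igf1r UMI, and 1 cell held 71.4% of the 28 UMIs. The part of RNA quality in these levels was not tested.

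Igfbp3, Igfbp4 and Igfbp7 each had UMIs in stromal-like and in tumour-like cells and were lower in immune-like cells. Igfbp3 encodes the main carrier of IGFs in blood, Igfbp4 an inhibitory binding protein that PAPP-A cleaves, and Igfbp7 a related secreted protein that binds IGFs weakly and lies in vessel walls and matrix. The 3 genes differed in how far stromal-like cells exceeded tumour-like cells.

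Igfbp3 was 3.63 UMIs per 10000 in enriched KPC-4545, 1.27 in enriched KPC-3403 and 2.08 in whole KPC-3403 stromal-like cells. Immune-like cells had 0.0168 in whole KPC-4545, 0 in enriched KPC-3403 and 0.0180 in whole KPC-3403. Tumour-like cells had 1.70 in enriched KPC-4545, 1.17 in whole KPC-4545, 1.81 in enriched KPC-3403 and 0.866 in whole KPC-3403. Stromal-like and tumour-like ranges overlapped, and every immune-like value lay below both. The 0 of enriched KPC-3403 came from 25 cells with 61469 UMIs, and the interval of its 21 neutrophil-like cells ran up to 0.701. Under edgeR's quasi-likelihood test the log2 difference was -5.90 ± 0.60 for immune-like minus tumour-like (SE, adjusted p = 1.51e-05) and 6.52 ± 0.64 for stromal-like minus immune-like (adjusted p = 3.13e-05). Stromal-like minus tumour-like was 0.62 ± 0.39 (adjusted p = 0.302). Free RNA carried Igfbp3 at 1.24 in enriched KPC-4545, 0.846 in whole KPC-4545, 1.39 in enriched KPC-3403 and 0.996 in whole KPC-3403, the last above the tumour-like level and the others below it.

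Inside the stromal-like cells Igfbp3 marked 1 cluster, that led by Tagln and Acta2, which encode contractile proteins of myofibroblasts and smooth muscle. Its level there was 12.8 UMIs per 10000 in enriched KPC-4545 (14 cells, 51.3% of the UMIs from 1 cell), 6.25 in enriched KPC-3403 (184 cells) and 5.45 in whole KPC-3403 (18 cells). The fibroblast-like cluster had 0.152, 0.508 and 0.635 in these libraries. Igf1 and Igfbp3 thus peaked in different stromal-like clusters. Among tumour-like cells Igfbp3 was 2.88 in enriched KPC-3403 and 4.26 in whole KPC-3403 in the cluster led by Nrn1 and Sprr1a, and had no UMI in the cluster led by Reg3g of either library (28 and 90 cells).

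Igfbp4 was 39.1 UMIs per 10000 in enriched KPC-4545, 14.2 in enriched KPC-3403 and 17.6 in whole KPC-3403 stromal-like cells. Immune-like cells had 0.498 in whole KPC-4545, 3.42 in enriched KPC-3403 and 0.773 in whole KPC-3403. Tumour-like cells had 7.62 in enriched KPC-4545, 7.29 in whole KPC-4545, 14.7 in enriched KPC-3403 and 6.54 in whole KPC-3403. Immune-like values were again the lowest, and the tumour-like value of enriched KPC-3403 reached into the stromal-like range. In edgeR's quasi-likelihood test immune-like minus tumour-like was -2.85 ± 0.55 (SE, adjusted p = 0.00159) and stromal-like minus immune-like 4.04 ± 0.63 (adjusted p = 0.000546). Stromal-like minus tumour-like was 1.19 ± 0.53 (adjusted p = 0.135) and was called without enriched KPC-3403 (1.74, adjusted p = 0.0299) and with sums of 10 or more cells (1.33, adjusted p = 0.0342). Free RNA carried Igfbp4 at 6.04 in enriched KPC-4545, 3.97 in whole KPC-4545, 13.8 in enriched KPC-3403 and 4.27 in whole KPC-3403, below the tumour-like cells of each library, though close to them in enriched KPC-3403.

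Igfbp7 was 43.7 UMIs per 10000 in enriched KPC-4545, 25.2 in enriched KPC-3403 and 27.9 in whole KPC-3403 stromal-like cells. Immune-like cells had 0.118 in whole KPC-4545, 4.23 in enriched KPC-3403 and 0.381 in whole KPC-3403. Tumour-like cells had 7.69 in enriched KPC-4545, 3.24 in whole KPC-4545, 7.52 in enriched KPC-3403 and 3.04 in whole KPC-3403. Every stromal-like value lay above all others, while the immune-like value of enriched KPC-3403 fell within the tumour-like range. By edgeR's quasi-likelihood test stromal-like minus tumour-like was 2.32 ± 0.67 (SE, adjusted p = 0.0291), immune-like minus tumour-like -2.73 ± 0.71 (adjusted p = 0.0138) and stromal-like minus immune-like 5.06 ± 0.80 (adjusted p = 0.000946). The call against tumour-like cells was lost without enriched KPC-4545 (adjusted p = 0.0799), without whole KPC-3403 (0.191), without the library block (0.0513), with relative log expression scaling (0.0666) and with cells assigned by a marker gate (0.114), and the immune-like call was lost without whole KPC-4545 (0.0819) and without the block (0.0901). Free RNA carried Igfbp7 at 5.38 in enriched KPC-4545, below its tumour-like cells, and at 5.14 in whole KPC-4545, 16.3 in enriched KPC-3403 and 5.96 in whole KPC-3403, above the tumour-like cells of each. The immune-like cells of the whole libraries, at 0.118 and 0.381, lay far below both.

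Endothelial-like cells, few as they were, carried the most Igfbp7 in the whole libraries, with 160 UMIs per 10000 in 4 cells of whole KPC-4545 and 44.6 in 8 cells of whole KPC-3403, where all 9 endothelial markers had UMIs. Within tumour-like cells the cluster led by Pdgfrl and Cdkn2a had 11.4 in enriched KPC-4545 (498 cells), 1.13 in whole KPC-4545 (13 cells) and 22.4 in enriched KPC-3403 (52 cells). These cells were high in both enriched libraries and low in the whole library. Igfbp4, like Igf1, was highest in the fibroblast-like cluster, at 49.1 in enriched KPC-4545, 32.9 in enriched KPC-3403 and 35.2 in whole KPC-3403.

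**Figure D3:**
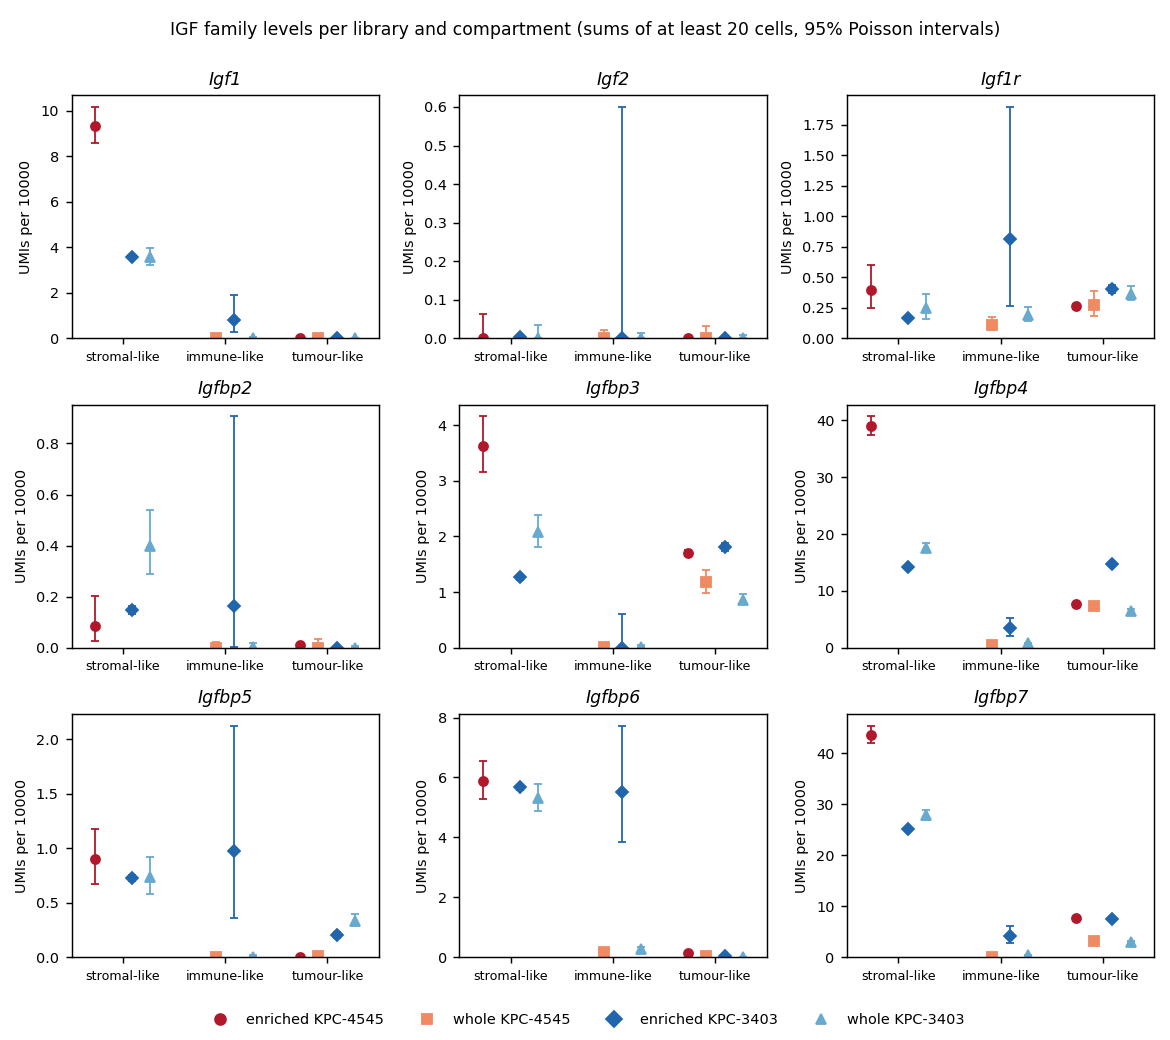
UMIs per 10000 of each member in stromal-like, immune-like and tumour-like cells, 1 point per library with at least 20 cells and exact 95% Poisson intervals. Igf1, Igfbp2, Igfbp5, Igfbp6 and Igfbp7 have all 3 stromal-like points above all 4 tumour-like points, a separation not counted over all genes. Igfbp3 immune-like points lie at or below 0.0180.

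Igfbp6, whose protein prefers IGF2 over IGF1, was high in stromal-like cells, present in leukocytes and low in tumour-like cells. Its level was 5.88 UMIs per 10000 in enriched KPC-4545, 5.68 in enriched KPC-3403 and 5.31 in whole KPC-3403 stromal-like cells, an average of 5.62 ± 0.290 (SD, n = 3). Immune-like cells had 0.157 in whole KPC-4545, 5.53 in enriched KPC-3403 and 0.262 in whole KPC-3403. Tumour-like cells had 0.152 in enriched KPC-4545, 0.0442 in whole KPC-4545, 0.0431 in enriched KPC-3403 and 0.00678 in whole KPC-3403. Stromal-like values stood closest together of all members' values there, relative to their mean, and the immune-like value of enriched KPC-3403 lay among them. Stromal-like cells held 43.9% of the Igfbp6 UMIs of enriched KPC-4545, 78.6% in whole KPC-4545, 99.4% in enriched KPC-3403 and 86.2% in whole KPC-3403. In enriched KPC-4545 the tumour-like cells, with 90.3% of all UMIs, held 54.1%, and 25.5% of them had an Igfbp6 UMI, or 0.974% after thinning to 1000 UMIs. Free RNA carried 0.684 there, above the tumour-like level.

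Under edgeR's quasi-likelihood test Igfbp6 was higher in stromal-like than in tumour-like cells by 6.83 ± 1.23 on the log2 scale (SE, adjusted p = 0.00847), a call lost with the marker gate (adjusted p = 0.159). It was higher in immune-like than in tumour-like cells by 4.51 ± 1.25 (adjusted p = 0.0374). The second call was lost without enriched KPC-3403 (2.68, adjusted p = 0.176), without enriched KPC-4545 (adjusted p = 0.0510), with stricter cell filters (0.0549) and with the marker gate (0.212). Stromal-like minus immune-like was 2.33 ± 1.19 (adjusted p = 0.227) and was called without a filter on low counts (2.41, adjusted p = 0.000599). The 25 immune-like cells of enriched KPC-3403, which passed a sort against CD45, held 10 of 14 stromal markers at a sum of 48.6 UMIs per 10000, against 3.33 in whole KPC-4545 and 5.62 in whole KPC-3403, and the part of this in the result was not tested.

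Among immune-like clusters Igfbp6 was highest in the neutrophil-like one led by Acod1 and Il1b. There 30.4% of 23 cells in whole KPC-4545, 57.1% of 21 cells in enriched KPC-3403 and 30.0% of 120 cells in whole KPC-3403 had an Igfbp6 UMI. Levels were 2.44, 6.46 and 2.42 UMIs per 10000, and free RNA carried 1.45, 2.80 and 0.948. The interval in whole KPC-4545, 1.33 to 4.09, took in its free RNA level. In whole KPC-3403 these cells held 61 Igfbp6 UMIs and no Igf1 UMI, where free RNA held 235 Igfbp6 and 203 Igf1 UMIs. In whole KPC-4545 they held 14 Igfbp6 UMIs and 1 Igf1 UMI, where free RNA held 139 and 164. The C1q-led cluster of whole KPC-4545 held nearly as many, 13 Igfbp6 UMIs at 0.394 per 10000 in 36 cells, and its T-like cells held 1. Other leukocytes of whole KPC-3403 had 0.130 in the C1q-led cluster, 0.0397 in T-like cells and no UMI in NK-like or B and plasma cell-like cells. The other neutrophil-like cluster of that library, led by Camp and Ngp (12 cells), also had no Igfbp6 UMI (interval 0 to 0.233). The dendritic-like cluster (17 cells) had none either (interval 0 to 0.463).

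**Figure D4:**
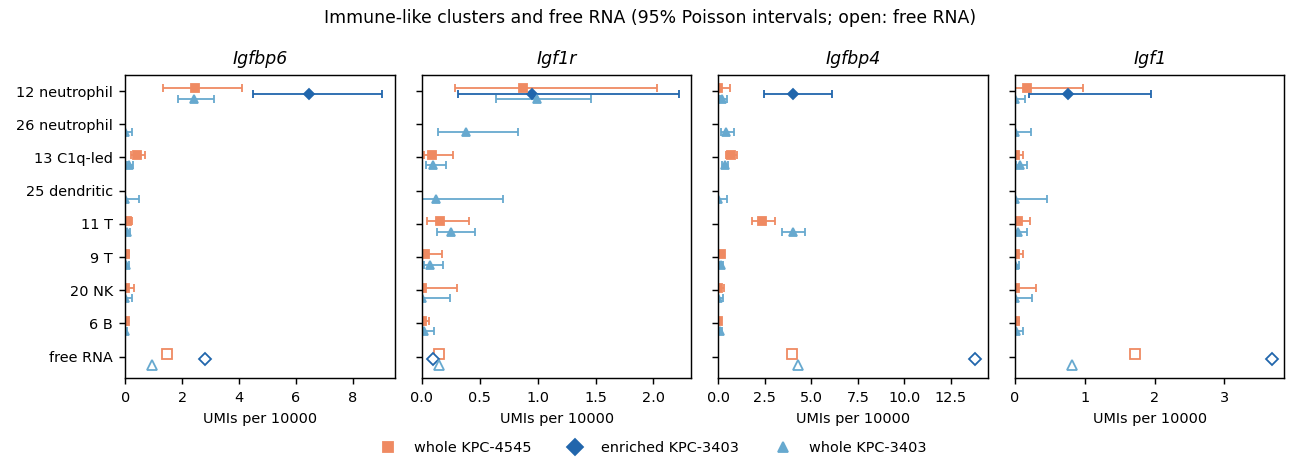
UMIs per 10000 of Igfbp6, Igf1r, Igfbp4 and Igf1 in each immune-like cluster by library (filled points, exact 95% Poisson intervals) and in free RNA (open points). In the neutrophil-like cluster 12 Igfbp6 stands at 2.44, 6.46 and 2.42, above free RNA at 1.45, 2.80 and 0.948, while Igf1 stays below free RNA. For Igfbp6 in whole KPC-4545 the interval, 1.33 to 4.09, takes in the free RNA level.

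Stromal-like subgroups differed in Igfbp6 as well. In enriched KPC-3403 the mesothelial-like cluster, led by Upk1b and Upk3b, had the most at 13.1 UMIs per 10000, with a UMI in 99.2% of 120 cells, followed by the fibroblast-like cluster at 10.7. The Tagln and Acta2 cluster had 1.03 in enriched KPC-4545, 3.20 in enriched KPC-3403 and 1.66 in whole KPC-3403, below the fibroblast-like cluster at 7.0, 10.7 and 8.86. The order was the reverse of that of Igfbp3.

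Igfbp4 differed between the T-like clusters. The T-like cluster led by Tnfrsf4, Icos and Ctla4 had 2.34 UMIs per 10000 in whole KPC-4545 (68 cells) and 4.0 in whole KPC-3403 (104 cells), and the T-like cluster led by Cd8a had 0.123 in whole KPC-4545 and 0.122 in whole KPC-3403. With exact Poisson intervals of 1.78 to 3.02 and 3.43 to 4.64, against 0.0334 to 0.314 and 0.0489 to 0.250, the clusters stood apart in both libraries beyond counting error, although 1 cell held 35.6% of the 59 UMIs in whole KPC-4545. Free RNA carried 3.97 and 4.27, above the levels of both clusters. Igfbp7 in the Cd8a-led cluster came mainly from 1 cell, which held 60.0% of 15 UMIs in whole KPC-4545 and 69.5% of 82 UMIs in whole KPC-3403.

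Igfbp2, a binding protein also found in serum, was scarce, with higher levels in stromal-like than in tumour-like cells. Its level was 0.0865 UMIs per 10000 in enriched KPC-4545 (5 UMIs), 0.148 in enriched KPC-3403 and 0.400 in whole KPC-3403 stromal-like cells (42 UMIs, 69.0% from 1 cell). Immune-like cells had 0 in whole KPC-4545, 0.163 in enriched KPC-3403 (1 UMI) and 0.00359 in whole KPC-3403 (1 UMI). Tumour-like cells had 0.00909 in enriched KPC-4545, 0.000799 in enriched KPC-3403 and 0 in both whole libraries. In enriched KPC-4545 they still held 25 of the 30 Igfbp2 UMIs in cells, 15 of them in 1 cell. The fibroblast-like cluster had no Igfbp2 UMI in enriched KPC-4545 or whole KPC-3403, and 2 UMIs in enriched KPC-3403. Stromal-like values lay above all tumour-like values and overlapped the immune-like range. It was higher in stromal-like than in tumour-like cells by 5.64 ± 1.20 on the log2 scale (SE, adjusted p = 0.0170, edgeR's quasi-likelihood test), a call lost without enriched KPC-3403 (adjusted p = 0.115) and with the marker gate (0.0956). Stromal-like minus immune-like was 4.83 ± 2.0 (adjusted p = 0.143), was called in 6 of 14 alternatives (lowest adjusted p 0.000573, without a filter on low counts) and turned to -0.16 without whole KPC-3403. Free RNA carried Igfbp2 at 0.154 in enriched KPC-3403, close to its immune-like and stromal-like levels.

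Igfbp5, which binds to matrix as well as to IGFs, had the largest estimated difference between lines in tumour-like cells, one that edgeR did not call. Stromal-like cells had 0.899 UMIs per 10000 in enriched KPC-4545, 0.725 in enriched KPC-3403 and 0.732 in whole KPC-3403. Immune-like cells had 0 in whole KPC-4545, 0.976 in enriched KPC-3403, where all 6 UMIs came from 1 cell, and 0.00359 in whole KPC-3403. Tumour-like cells had 0.00182 in enriched KPC-4545, 0.00883 in whole KPC-4545, 0.201 in enriched KPC-3403 and 0.335 in whole KPC-3403. Stromal-like values lay above every tumour-like value, yet the tumour-like values of the 2 lines were far apart. Stromal-like minus tumour-like was 2.92 ± 1.85 (SE, adjusted p = 0.347, edgeR's quasi-likelihood test) and was called without whole KPC-3403 (4.81, adjusted p = 0.0187) and without a filter on low counts (2.93, adjusted p = 9.36e-08). Free RNA carried Igfbp5 at 0.0658 in enriched KPC-4545, 0.658 in whole KPC-4545, 0.299 in enriched KPC-3403 and 0.165 in whole KPC-3403, and the tumour-like level exceeded it in whole KPC-3403 alone among the 4 libraries.

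The tumour-like Igfbp5 of the KPC-3403 libraries was highest in the cluster led by Reg3g, Lypd8 and Prap1, genes of intestinal epithelium. It held 2.17 UMIs per 10000 in enriched KPC-3403 (28 cells) and 0.901 in whole KPC-3403 (90 cells), with 63.3% and 44.0% of these UMIs in 1 cell each. KPC-4545 had 6 cells of this cluster in all, too few for a level. The 21 cells of enriched KPC-3403 in the cluster named endothelial-like, which lacked its markers, had the most Igfbp5 of any cluster, at 10.8 (106 UMIs, 34.0% from 1 cell).

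**Figure D5:**
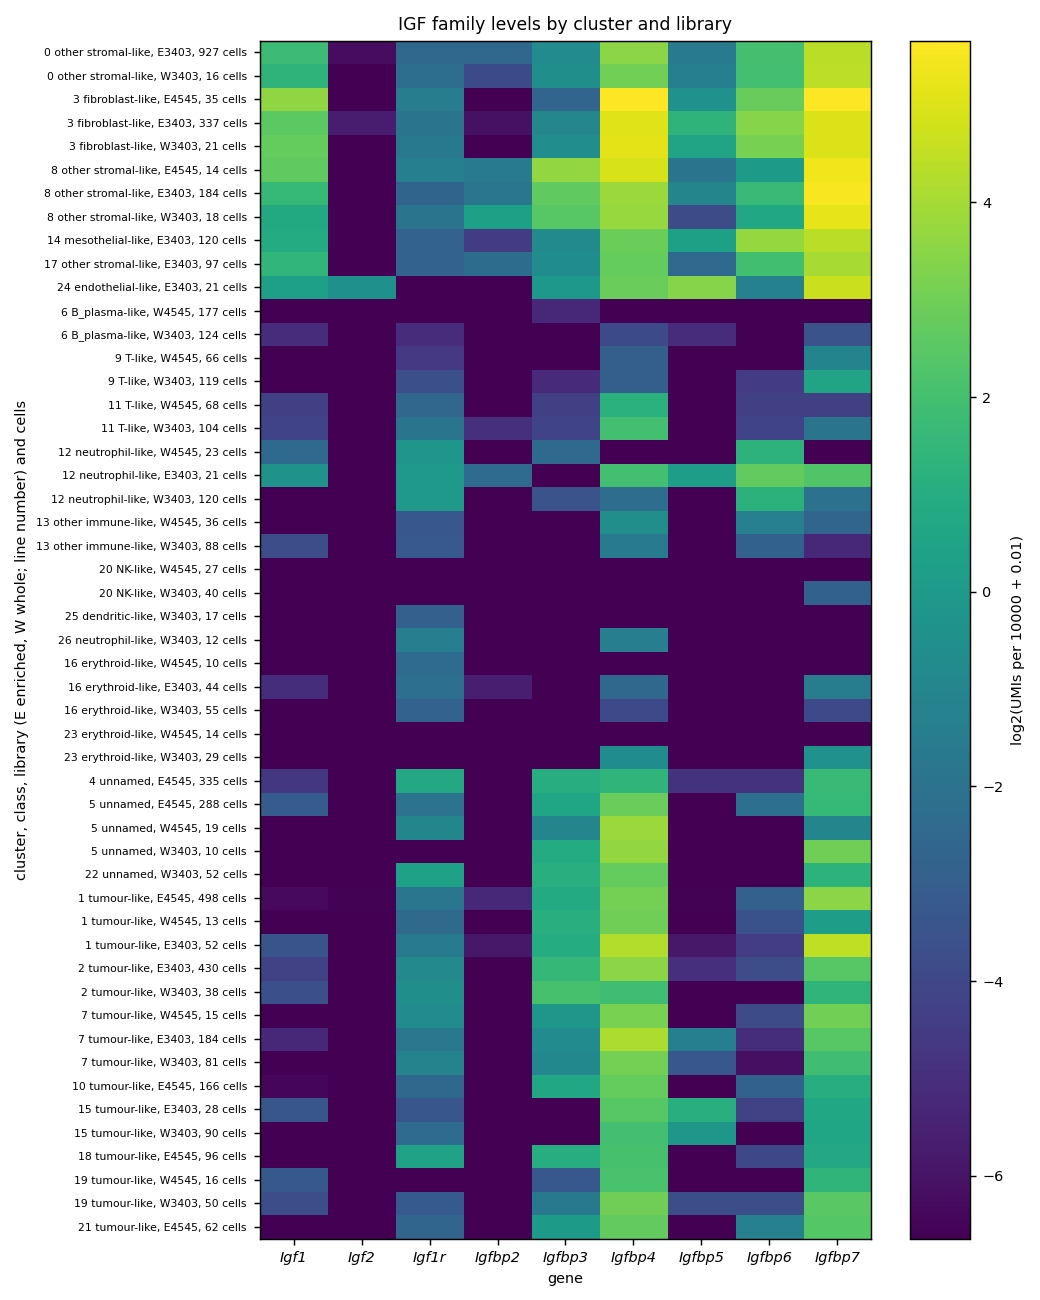
Level of each member in each cluster and library with at least 10 cells, as log2(UMIs per 10000 + 0.01), rows running from stromal-like to immune-like to tumour-like clusters. Igf1 is brightest in the fibroblast-like cluster 3, Igfbp3 peaks in cluster 8 (12.8, 6.25 and 5.45 UMIs per 10000) and Igfbp6 is bright again in the neutrophil-like cluster 12.

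The 2 tumour lines were compared in tumour-like cells, the compartment with enough cells in all 4 libraries. No member passed the test between KPC-4545 and KPC-3403, and none passed between enriched and whole libraries. Of the 9 members 6 passed the filter on low counts, giving 0 higher, 0 lower and 6 not passing in each comparison, beside 0% of 12242 genes called by edgeR's quasi-likelihood test. At an unadjusted p under 0.05 there were 1956 genes between lines and 1229 between preparations, and DESeq2 called 436 and 390. The additive fit of 4 libraries leaves 1 residual degree of freedom, which sets its precision.

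Igfbp5 had the largest difference of the 6, at -6.52 ± 0.52 for KPC-4545 minus KPC-3403 (SE, adjusted p = 0.209 in edgeR's quasi-likelihood test), below in 2 of 2 KPC-4545 libraries. DESeq2 gave -6.51 with an adjusted p of 6.39e-09, and edgeR called it without a filter on low counts (-6.52, adjusted p = 9.09e-09), without whole KPC-4545 (-7.27, adjusted p = 0.0219) and with unnamed clusters counted as tumour-like (-5.88, adjusted p = 0.0290). Igfbp6 was 1.96 ± 0.47 (adjusted p = 0.276) and Igf1r -0.64 ± 0.24 (adjusted p = 0.326), and the other 3 lay between -0.51 and 0.06. The tumour-like cells of the lines also differed in their clusters. Of enriched KPC-4545, 498 of 828 cells lay in the cluster led by Pdgfrl. Of enriched KPC-3403, 430 of 708 cells lay in the cluster led by Nrn1, where Igfbp5 was 0.0227 UMIs per 10000. The cluster led by Tff2 held 189 of the 252 tumour-like Igfbp5 UMIs of enriched KPC-3403, and its 15 cells in whole KPC-4545 held none. In whole KPC-3403, 125 of 148 lay in the Reg3g cluster, of which KPC-4545 had 6 cells in all. The part of cluster makeup in the difference was not tested.

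For enriched minus whole, Igfbp7 was 1.22 ± 0.18 (SE, adjusted p = 0.434 in edgeR's quasi-likelihood test), higher in the enriched library of 2 of 2 lines, and it was called by DESeq2 at 1.22 with an adjusted p of 0.00118 and by edgeR without a filter on low counts (1.28, adjusted p = 0.00205). Igfbp6 was 2.12 ± 0.50 (adjusted p = 0.483) and Igfbp3 0.75 ± 0.23 (adjusted p = 0.484). Stromal marker sums in these tumour-like cells were 42.3 in enriched KPC-4545 against 9.48 in whole KPC-4545, and 18.1 in enriched KPC-3403 against 4.53 in whole KPC-3403. They were higher in both enriched libraries, as Igfbp7 was, and their part in its difference was not tested. The members' median was -0.28 between lines and 0.66 between preparations, and that of all genes -0.03 and 0.02.

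In stromal-like cells no test between lines was run, with 11 cells in whole KPC-4545, and values stand side by side. Those 11 cells had Igfbp3 at 0.763, Igfbp4 at 16.7, Igfbp5 at 5.34, Igfbp6 at 5.43 and Igfbp7 at 16.3 UMIs per 10000. Between the enriched libraries, KPC-4545 had the higher level for Igf1 (9.36 against 3.57 in KPC-3403), Igfbp3 (3.63 against 1.27), Igfbp4 (39.1 against 14.2) and Igfbp7 (43.7 against 25.2). The whole libraries went the same way for Igf1 (6.24 in KPC-4545 against 3.6 in KPC-3403). They went the other way for Igfbp3 (0.763 against 2.08), Igfbp4 (16.7 against 17.6) and Igfbp7 (16.3 against 27.9). In enriched KPC-4545, 102 of the 199 Igfbp3 UMIs of the Tagln and Acta2 cluster came from 1 cell. Igfbp6 was 5.88 in enriched KPC-4545 and 5.68 in enriched KPC-3403. The stromal-like makeup also differed, with 35 of 56 cells of enriched KPC-4545 but 337 of 1665 cells of enriched KPC-3403 in the fibroblast-like cluster. Within that cluster Igf1 was 12.3 in enriched KPC-4545 and 5.86 in enriched KPC-3403, but 20.2% of the Igf1 UMIs of the KPC-4545 cells came from 1 cell.

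Partner genes of the pathway were read from a list of 31 receptors, proteases, adaptors and RNA-binding proteins, of which 24 passed the filter. Stromal-like against tumour-like cells gave 6 higher, 3 lower and 15 not passing, immune-like against tumour-like 2 higher, 7 lower and 15 not passing, and stromal-like against immune-like 8 higher, 1 lower and 15 not passing, beside 21.0%, 28.5% and 23.7% of all genes called in these comparisons. Median log2 differences of the list were 0.26, -0.70 and 1.20, and those of all genes tested -0.04, -0.19 and 0.12. In tumour-like cells 21 were tested and none passed between lines or preparations, beside 0% of all genes.

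Pappa, the protease gene whose product frees IGF from IGFBP4, was 0.519 UMIs per 10000 in enriched KPC-4545, 0.347 in enriched KPC-3403 and 0.561 in whole KPC-3403 stromal-like cells. Immune-like cells had no Pappa UMI, and tumour-like cells had at most 0.0069. It was higher in stromal-like than in tumour-like cells by 6.93 ± 0.60 (SE, adjusted p = 1.5e-05, edgeR's quasi-likelihood test). Htra3, a serine protease that can cleave binding proteins, was higher by 5.80 ± 0.49, and Grb10, an adaptor that restrains insulin and IGF1 receptors, by 9.80 ± 0.93. Grb10 was 1.83 in enriched KPC-4545, 1.35 in enriched KPC-3403 and 1.17 in whole KPC-3403 stromal-like cells, with at most 4 UMIs in the tumour-like cells of any library. Both were also higher in stromal-like than in immune-like cells, Htra3 by 5.38 ± 0.66 and Grb10 by 6.6 ± 1.28.

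Igf2bp1 and Igf2bp2, which encode proteins that bind Igf2 mRNA, were lower in stromal-like than in tumour-like cells, with log2 differences of -6.33 ± 0.67 and -2.09 ± 0.35, and lower in immune-like than in tumour-like cells, with -6.79 ± 0.94 and -6.46 ± 0.58 (SE). Igf2bp1 was 0.485 in enriched KPC-4545, 0.133 in whole KPC-4545, 0.437 in enriched KPC-3403 and 0.341 in whole KPC-3403 tumour-like cells, where Igf2 itself gave 1 UMI in all. Pik3r1, a regulatory subunit of PI3K, was higher in immune-like than in tumour-like cells by 3.35 ± 0.44 and lower in stromal-like than in immune-like cells (-2.09 ± 0.49). Htra1, another such protease, was lower in immune-like than in tumour-like cells (-5.36 ± 1.52) and higher in stromal-like than in immune-like cells by 7.50 ± 1.53. Insr, the insulin receptor gene, was lower in immune-like than in tumour-like cells (-1.54 ± 0.48), and Akt2 was higher in stromal-like and in immune-like than in tumour-like cells by 1.66 ± 0.30 and 1.00 ± 0.35.

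Genes most like each member were sought by Pearson's r of log2(CPM + 1) over 25 sums per library and cell class, which share libraries and depth. Igf1 was most like Mrc2 (0.97), Rian (0.97) and Meg3 (0.96), and Igfbp6 most like Steap4, C3 and Mgst1 (0.92 to 0.93). Igfbp3 was most like Rab34, Bcar1 and Neo1 (0.93 to 0.94) and Igfbp5 most like Spats2l, Osmr and Efemp1 (0.90 to 0.94). Igfbp4 was most like Ppic, Efemp2 and the member Igfbp7 (0.92 to 0.93), and Igfbp7 most like Ppic, Aebp1 and Col6a1 (0.94 to 0.95). Igf1r had the weakest match, to Tnfrsf23 (0.85), Slc16a3 and Tgm2. Igf2 and Igfbp2 averaged under 10 CPM over these sums, and for them no match is given.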

How the data were processed

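The authors deposited raw UMI counts per gene and droplet barcode, 1 matrix a library. The submitters' processing notes give the build as mm10 and the counting tool as Cell Ranger 6.1.1, but per the file headers the software was Cell Ranger 4. Cells needed 500 UMIs, 250 genes and at most 20% mitochondrial UMIs, and barcodes of up to 5000 UMIs had to differ from free RNA (Monte Carlo test, 1000 draws, false discovery rate 0.01). Small copies of a barcode present at over 10 times the UMIs in another library were set aside. Scrublet doublets, at 0.8% per 1000 cells, were removed (19 in enriched KPC-4545, 2 in whole KPC-4545, 51 in enriched KPC-3403 and 10 in whole KPC-3403).

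Clustering in scanpy 1.11.5 (2000 variable genes without the members, 30 components, 15 neighbours, Leiden resolution 1 in leidenalg 0.10.2) gave 27 clusters, named when a marker list led by 1.5 times. This naming rule was set after the clusters and their libraries had been seen. The members and lists were chosen with earlier results of these data known.

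UMIs summed over at least 20 cells per library and compartment were tested with edgeR 4.0.16 in R 4.3.3 (TMM, filterByExpr, robust glmQLFit, Benjamini-Hochberg at 0.05) with a library block (10 sums, 4 residual degrees of freedom). Tumour-like sums were tested with line and preparation as terms. SE is the log2 difference over the root of F. Levels are UMIs per 10000 with exact 95% Poisson intervals, and floors take 3 UMIs. Named genes are the members, up to 4 list genes per comparison and direction with the largest called change and a mean of 10 CPM, and the 3 genes most like each member. Genes, clusters and cells singled out beyond this were chosen after their values were seen.

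The replicate number marks the tumour line and so pairs libraries; the 2 KPC-4545 libraries deviated from the means of their preparations with a correlation of 0.477 over 12242 genes. Alternatives were relative log expression scaling, no filter, DESeq2 1.42.0, stricter cells (1000 UMIs, 500 genes), Leiden resolution 2, a marker gate per cell, sums of 10 cells, no block and leaving out each library; keeping shared barcodes and counting unnamed clusters as tumour-like were added after seeing the data. Overlapping genes (Igf1os for Igf1, Mir483 and Igf2os for Igf2, Polr2b for Igfbp7) could share reads.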

Additional observations from a re-analysis of the deposited data

Results flagged for a closer look

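Some contrasts between compartments pointed in opposite directions in the groups of libraries compared, and in none of these was the difference between the groups tested. Igf1r in stromal-like minus tumour-like cells was 0.135 UMIs per 10000 in enriched KPC-4545, but -0.234 in enriched KPC-3403 and -0.119 in whole KPC-3403. Igf1r in immune-like minus tumour-like cells was 0.410 in enriched KPC-3403, but -0.162 in whole KPC-4545 and -0.172 in whole KPC-3403. Igfbp5 in the same contrast was 0.775 in enriched KPC-3403, but -0.00883 in whole KPC-4545 and -0.331 in whole KPC-3403. Stromal-like minus immune-like cells gave -0.644 for Igf1r in enriched KPC-3403 and 0.0532 in whole KPC-3403. The same contrast gave -0.0151 for Igfbp2 in enriched KPC-3403 and 0.396 in whole KPC-3403, and -0.251 for Igfbp5 in enriched KPC-3403 and 0.729 in whole KPC-3403. The immune-like side in enriched KPC-3403 rests on 25 cells, in which 6 Igfbp5 UMIs came from 1 cell and Igfbp2 had 1 UMI. The Igfbp2 value of whole KPC-3403 stromal-like cells rests on 42 UMIs, 69.0% of them from 1 cell.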

How the results depend on the processing

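Of the member differences recomputed, 432 kept direction and side of the threshold, 20 gained a call, 16 lost one and 24 changed sign. Igf1 in stromal-like minus tumour-like and Igfbp3 and Igfbp4 in both immune-like comparisons, as well as Igfbp7 in stromal-like minus immune-like, were called under all 14 alternatives; lost and gained calls stand beside their results, except Igfbp5 in stromal-like minus immune-like, gained without a filter on low counts (4.69, adjusted p = 7.75e-07, edgeR). The number of genes called moved to 4523 without a filter and 953 with the marker gate in stromal-like minus tumour-like cells, where leaving out 1 library gave 1409 to 3179, the lowest without enriched KPC-3403. In immune-like minus tumour-like cells it was 5066 without a filter and 1912 to 4709 with 1 library left out, and in stromal-like minus immune-like cells 1316 to 4019, both lowest without whole KPC-3403. Between lines it was 840 without a filter, 436 with DESeq2, 18 at Leiden resolution 2, 14 with the marker gate, 3 with shared barcodes kept, 66 with unnamed clusters as tumour-like, and 0 to 415 with 1 library left out (415 without whole KPC-4545). Between preparations it was 378 without a filter, 390 with DESeq2, 11 with stricter cells, 2 at Leiden resolution 2, 3 with shared barcodes kept, 8 with unnamed clusters, and 0 to 633 with 1 library left out (633 without enriched KPC-3403, 36 without enriched KPC-4545). With 3 libraries left, the other term was dropped and the lone library is assumed to vary like the rest. The marker gate put the stromal-like share of Igf1 UMIs at 99.5% in enriched KPC-4545, 99.6% in enriched KPC-3403 and 96.8% in whole KPC-3403, with 58.5% of all UMIs of enriched KPC-4545 then called stromal-like, and that of Igfbp4 in enriched KPC-4545 at 59.9% instead of 9.41%.

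Without the replicate block, which pairs sums of 1 library, or of 1 line in tumour-like cells, the 5 comparisons called 2244, 3515, 3357, 0 and 0 genes. Igfbp7 lost its calls in stromal-like minus tumour-like and in immune-like minus tumour-like cells. Igfbp2 gained a call in stromal-like minus immune-like cells (adjusted p = 0.0213, edgeR), and no other member's call changed.

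Igf1r in stromal-like minus immune-like cells became 0.10 with relative log expression scaling, 0.0192 without a filter, 0.0919 with stricter cells, 0.0350 at Leiden resolution 2, 0.14 with the marker gate and 0.19 without the block. Igfbp3 between lines became -0.19 with stricter cells, -0.14 at Leiden resolution 2 and -0.00636 without the block, and Igf1r between preparations 0.0495 without a filter and 0.0675 with unnamed clusters. With 1 library left out, immune-like minus tumour-like ran from -0.97 to 5.11 for Igfbp2 and -5.44 to 2.30 for Igfbp5. Stromal-like minus immune-like ran from -0.33 to 0.72 for Igf1r and -0.16 to 6.01 for Igfbp2. Between lines the range was -0.44 to 0.59 for Igfbp3, -1.08 to 0.0479 for Igfbp4 and -0.78 to 0.70 for Igfbp7, and between preparations -0.43 to 0.32 for Igf1r and -6.78 to 3.59 for Igfbp5. The cause was not tested. Relative log expression scaling moved the median of all genes in stromal-like minus immune-like cells to 0.22, against 0.12 with TMM, on the log2 scale, and no called member turned sign. Depth limits Igf2, Igfbp2 and the immune-like values of enriched KPC-3403 most, since they rest on few UMIs.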
